A study of Mus musculus with 4 samples.

Results

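The protein part of the cytosolic ribosome is encoded by genes with symbols that begin with Rpl (large subunit) or Rps (small subunit). The set described here holds every row of the count table whose symbol is Rpl or Rps followed by a number and at most 1 of the letters a, l or x, together with Rplp0, Rplp1, Rplp2 and Rpsa. Symbols that contain -ps, which mark pseudogenes, were left out. Of the 51826 rows of the table, 82 match and 81 have at least 1 count, since Rpl10l was listed at 0 in all libraries. The 81 genes comprise 46 of the large subunit, 32 of the small subunit and the 3 proteins of the stalk, the arm of the large subunit that recruits translation factors. Of the 81, 80 passed the filter on low counts and were tested, and Rpl39l, with 2 and 8 counts in WT mice and 4 and 3 in Eko mice, was not.

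Ribosomes are built from ribosomal RNA, made in the nucleolus by RNA polymerase I, and from ribosomal proteins, which are synthesised in the cytosol and imported into the nucleus for assembly. Most ribosomal protein mRNAs start with a cytosine followed by a run of pyrimidines, the terminal oligopyrimidine (TOP) motif, through which the kinase complex mTORC1 and the RNA-binding protein LARP1 control their translation. Striated muscle is known for a ribosomal protein of its own, RPL3L, which takes the place of the ubiquitous RPL3 near the catalytic centre of the large subunit, and for changes in ribosome content with growth and training.

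The data are RNA sequencing of quadriceps from sedentary male mice of 20 weeks on standard chow, with 2 wild-type (WT) mice and 2 Mef2dα2 exon knockout (Mef2dα2 Eko) mice, 1 library per mouse, to find which transcripts differ when the exon is deleted. MEF2D is a transcription factor, and the α2 exon is the alternative exon that adult skeletal muscle includes. The exon was removed with CRISPR-Cas9 in the germ line, so every cell of the Eko mice carries the deletion, and 2 founder lines were kept in the C57BL6/J background. The labels name no line for these mice, and no agent was given to either genotype.

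The libraries held 72626757 to 85176059 counts, which places the floor of 3 counts at 0.0348 to 0.0419 CPM (counts scaled to a common library total) and covers counting error only. Library WT 1 stood apart: chi-square per degree of freedom, computed between pairs of libraries over all genes, was at least 118.8 against each of the other 3 libraries, and no more than 42.0 among those 3. Results are therefore also given without it. Muscle fibre markers, 10 genes, summed to 147004 and 152201 CPM in WT and to 150388 and 157604 CPM in Eko libraries, as the tissue label says. Macrophage markers summed to 60.3 and 47.7 CPM in WT and to 39.5 and 30.6 CPM in Eko libraries, with 8 of 8 lower in Eko and a median log2 fold change of -0.66. Adipocyte markers summed to 379 and 312 CPM in WT and to 310 and 287 CPM in Eko libraries, with 6 of 8 lower and a median log2 fold change of -1.08, so single genes differed more than the sum, and the median deviation of the list from the 4-library mean was 1.02 in WT 1 and -1.23 in Eko 2. Smooth muscle and pericyte markers were higher in Eko in 7 of 7, with a median of 0.17, and glia and nerve markers in 6 of 6, with a median of 0.28. None of the genes in these lists passed the quasi-likelihood test of edgeR. DESeq2 called 3 macrophage markers (C1qb, C1qc and Lyz2), the muscle fibre markers Myh1 and Myh2, and the fibroblast marker Col3a1, all lower in Eko, which are named here after their values were seen. None of these marker lists had a gene at 0 in the 4 libraries, and their part in the ribosomal protein values was not tested. In bulk tissue, fewer cells of a type and less RNA per cell cannot be told apart. Mef2d itself was at 259 and 227 CPM in WT and at 252 and 241 CPM in Eko libraries, but a count over the whole gene does not show the loss of 1 exon.

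The start of a ribosomal protein mRNA carries the TOP motif, so the bases at the annotated starts are shown first. RefSeq windows on GRCm38.p6 covered 59 of the 81 genes. A C at the first transcribed base followed by at least 4 pyrimidines (C or T) stood at an annotated start in 13 of the 59 genes, 22.0%, against 3.01% of the 27025 genes with a window. In the others these letters are not at the annotated base. The sequences below run from 12 bases before the start to 18 bases from it, 5′ to 3′, with the tract in capitals, for Rps10 (chr17:27635227-27635256, minus strand), Rps6 (chr4:86857350-86857379, minus strand), Rpl15 (chr14:18270969-18270998, minus strand), Rps27 (chr3:90213631-90213660, minus strand), Rplp2 (chr7:141447639-141447668, plus strand) and Rps18 (chr17:33955648-33955677, minus strand). Rps10 had 1 of the lowest fold changes, Rps6 is the substrate of S6 kinase, Rps27 and Rplp2 are described below, and Rpl15 and Rps18 were picked after their windows were seen, for a long tract in each subunit.
Rps10: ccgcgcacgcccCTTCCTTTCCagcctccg
Rps6: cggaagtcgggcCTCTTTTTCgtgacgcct
Rpl15: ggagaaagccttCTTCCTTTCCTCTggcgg
Rps27: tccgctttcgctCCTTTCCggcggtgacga
Rplp2: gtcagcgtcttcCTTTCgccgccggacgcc
Rps18: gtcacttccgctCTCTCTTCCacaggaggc
The same window of Rpl3l, the muscle paralogue, at its first annotated start (chr17:24727814-24727843, plus strand) holds no such tract.
Rpl3l: tgttctagctctgtcatttgacctctggtg
The binding motif of the MEF2 factors, searched on both strands in the whole windows of 250 bases before and 50 bases from the start, was found in 1 of the 59 genes, 1.69%, against 3.70% of all genes with a window. That gene is Rpl3l, and the match lies 123 bases before its second annotated start (chr17:24732552-24732581, plus strand). Both lie inside the gene, which spans chr17:24727820-24736143, and the window of its first start holds no match. The motif is in capitals below, and upstream refers to the second start.
Rpl3l upstream: aaatgtcagcTTAAAAATAGcaccagccct
The letters TATAAA of the TATA box, searched in the same way at any position of the window, were present in 6 of the 59 genes, 10.2%, against 15.7% of all genes with a window. A match of letters is a description and does not show binding.

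Ribosomal protein transcripts were abundant in quadriceps, and the muscle-specific Rpl3l was among the most abundant of them. Levels of different genes were compared as CPM per kilobase of transcript, using the median length of the protein-coding transcripts of each gene. Where a gene has no protein-coding transcript, as for Rpl6l, the median over all its transcripts was used. The median over the 80 tested genes was 88.7 CPM per kb, with quartiles of 49.7 and 124 CPM per kb, against a median of 3.05 CPM per kb over all genes tested. Of the 81 genes, 79 lay above that median and 64 above 37.2 CPM per kb, the limit of the top 10% of all genes tested. The tested genes of the large and small subunits had medians of 85.9 and 87.6 CPM per kb, and the 3 stalk genes had a median of 197 CPM per kb.

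Rplp0, the scaffold of the stalk, had the highest level, 347 and 349 CPM per kb in WT and 339 and 333 CPM per kb in Eko libraries. Rps2, a protein of the small subunit near the mRNA entry channel, followed at 309 and 339 CPM per kb in WT and at 315 and 309 CPM per kb in Eko libraries, a range that overlapped with that of Rplp0. Rpl3l came next at 294 and 296 CPM per kb in WT and at 275 and 271 CPM per kb in Eko libraries, below every library of Rps2. Rps15 and Rps24, both of the small subunit, had mean levels of 216 and 212 CPM per kb and overlapped with each other.

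At the other end were Rpl27a at 18.3, Rps20 at 16.0, Rpl39 at 15.7, Rpl6l at 12.8 and Rps4l at 1.63 CPM per kb. The low position of Rps20 goes with its annotated length of 3706 bases, the largest of the 81, since its CPM was 58.0 and 65.8 in WT and 56.0 and 57.3 in Eko libraries. Rpl6l and Rps4l are annotated as pseudogenes in GENCODE, although their symbols match the rule. Without Rps4l, Rpl6l and Rpl39l, the highest and the lowest level differed by 21.7-fold. With the longest transcript in place of the median length, the median of the 80 tested genes was 65.1 CPM per kb and Rps24 moved from rank 5 to rank 36, so positions in this order depend on the transcript chosen.

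**Figure D1:**
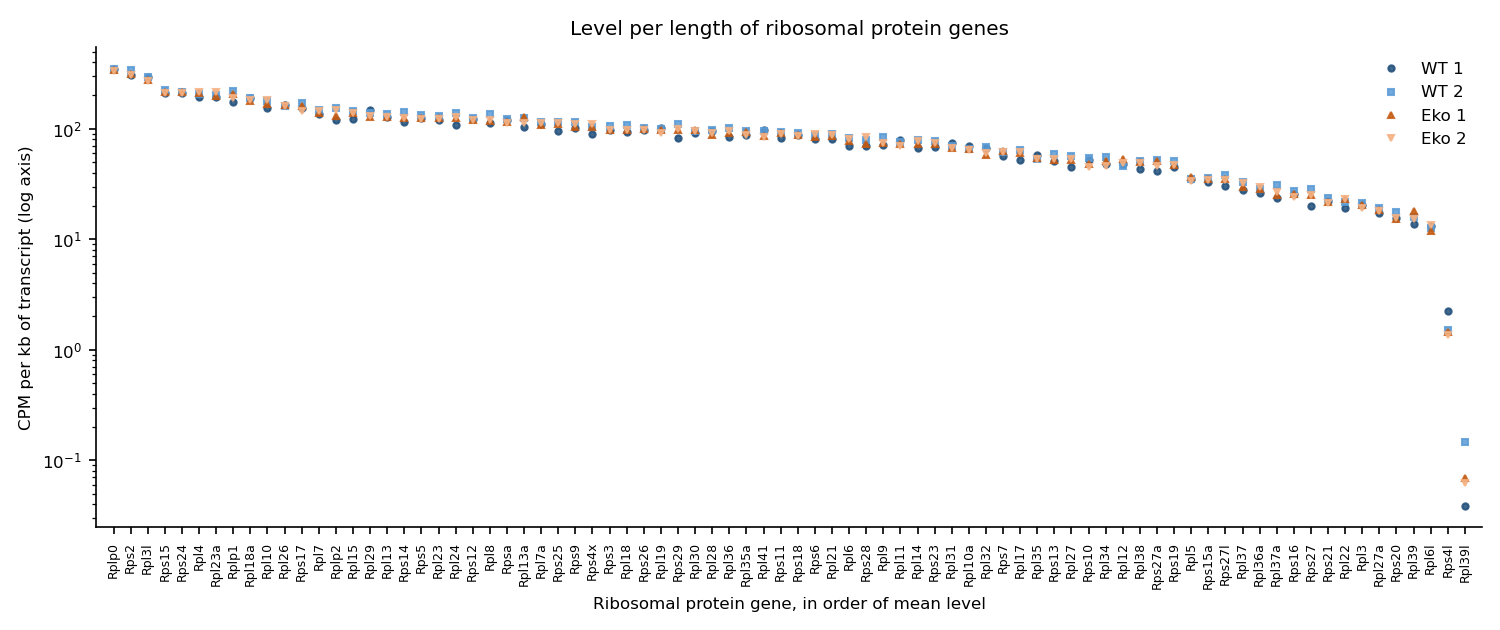
Level of 80 of the 81 ribosomal protein genes in CPM per kb of transcript on a log axis, in order of the mean over 4 libraries, with 1 point per library (2 WT and 2 Eko mice). The points of a gene lie close together compared with the range across genes, from 342 CPM per kb for Rplp0 to 1.63 CPM per kb for Rps4l, with Rpl39l below it at 2 to 8 counts per library.

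All ribosomal protein mRNAs together made up a small and similar share of the RNA counted in both genotypes. Their share of the counts was 0.568% in WT 1, 0.634% in WT 2, 0.600% in Eko 1 and 0.585% in Eko 2. The means were 0.601% ± 0.0461 (SD, n = 2) in WT and 0.592% ± 0.0108 (SD, n = 2) in Eko mice. The 2 WT libraries were the lowest and the highest of the 4, so the groups overlapped, and the exact two-sided permutation test gave p = 1, where the smallest p that 2 against 2 libraries allow is 0.333. Of the counts in the set, 24.8% and 23.7% in WT and 24.0% and 23.8% in Eko libraries fell on the 5 genes with the most counts.

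No ribosomal protein gene differed between the genotypes at an adjusted p below 0.05. With edgeR's quasi-likelihood test and Benjamini-Hochberg adjustment over 16120 genes, 0 of the 80 tested members were called, where 0.416% of all genes tested were called, and the smallest adjusted p of a member was 0.386. An unadjusted p below 0.05 was reached by 3 members, 3.75% of them, against 11.6% of all genes tested. DESeq2 called 0 members, against 1.97% of all genes, and had 0 with an unadjusted p below 0.05, against 8.65%. Limma-voom called 0 members, against 0.354% of all genes, and had 3 with an unadjusted p below 0.05, against 11.4%. In Eko mice 36 members had a higher and 44 a lower point estimate, against 48.7% higher and 51.3% lower among all genes tested.

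The estimates were small as well as uncalled. The median log2 fold change of the members was -0.016 and that of all genes tested was -0.0051, and the median of its absolute size was 0.055 for the members and 0.14 for all genes. The 95% interval of the fold change lay within 1.2-fold either way in 38 members and in 15.1% of all genes, and within 1.5-fold in 79 members and in 57.7% of all genes. Within 2-fold the counts were 79 members and 75.3% of all genes, and the member outside was Rps4l, which had the fewest counts of those tested. These intervals come from 2 mice per genotype with the spread shared across genes, and both the depth of a gene and its spread set their width.

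**Figure D2:**
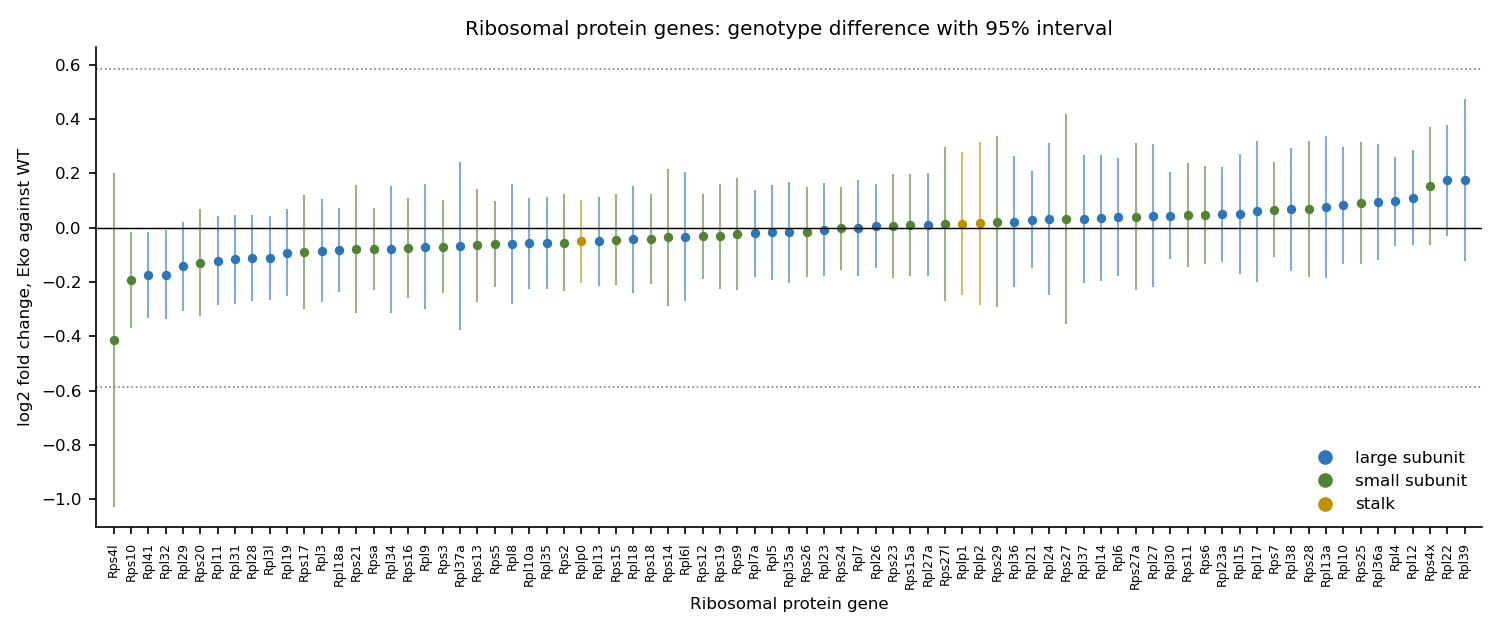
Log2 fold change of the tested ribosomal protein genes, except 1 not reported by name, in Eko against WT mice, in order of size, with lines for the 95% interval of edgeR's quasi-likelihood test and colours for the subunit. Dotted lines mark a fold of 1.5 either way, and of the intervals shown the one that does not lie between them is that of Rps4l.

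The lowest estimate belonged to Rps4l, a copy related to Rps4x, at 1.94 and 1.3 CPM in WT libraries, and its mean in Eko libraries was 1.21 ± 0.055 CPM (SD, n = 2). Both Eko libraries were below both WT libraries, and WT 1 stood above the other 3. Its log2 fold change was -0.41 (SE 0.26, edgeR adjusted p = 0.586). It lies opposite Tmtc1 on the other strand. Without WT 1 its estimate was -0.096.

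Rps10 (ENSMUSG00000052146.16, chr17:27630418-27636669, minus strand, GRCm38) encodes a protein of the small subunit head that is ubiquitinated when ribosomes collide. It was at 35.5 and 37.0 CPM in WT and at 32.8 and 30.7 CPM in Eko libraries, with both Eko libraries lower. The log2 fold change was -0.19 (SE 0.07, 95% interval -0.36 to -0.02), with an unadjusted p of 0.0346 and an adjusted p of 0.394 from edgeR. Rpl41, the smallest ribosomal protein, was at 51.1 and 49.99 CPM in WT and at 45.1 and 44.5 CPM in Eko libraries, again with no overlap. Its log2 fold change was -0.17 (SE 0.07, edgeR adjusted p = 0.386). Rpl32, of the large subunit, was at 47.3 and 48.3 CPM in WT and at 41.5 and 43.3 CPM in Eko libraries (log2 fold change -0.17, SE 0.07, edgeR adjusted p = 0.403). Rps10 overlaps Gm15420 and Rpl32 overlaps Cand2 on the other strand, and the pseudogene rows of Rps10 held 71.1% of its own counts. With those rows added, the log2 fold change of Rps10 was -0.17. After the trend with GC content over all genes was removed from each library, it was -0.12. Rps10, Rpl41 and Rpl32 were the 3 members with an unadjusted p below 0.05, and all were lower in Eko. The other low estimates were those of Rpl29 at -0.14 and of Rps20 at -0.13, with edgeR adjusted p-values of 0.481 and 0.590. With the GC trend removed, they were -0.063 for Rpl29 and -0.20 for Rps20. With the trend with transcript length removed, they were -0.093 and -0.15. With each mouse left out, Rps20 was between -0.22, without WT 1, and -0.020, without WT 2.

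The highest estimate was that of Rpl39, a small protein that lines the exit tunnel of the large subunit, at 8.37 and 9.72 CPM in WT and at 11.04 and 9.38 CPM in Eko libraries, so the groups overlapped. Its log2 fold change was 0.18 (SE 0.12, edgeR adjusted p = 0.635), and its pseudogene rows held 77.9% of its own counts. Rpl22, an RNA-binding protein of the large subunit, was at 39.0 and 44.8 CPM in WT and at 47.5 and 47.0 CPM in Eko libraries, with both Eko libraries higher. Its log2 fold change was 0.17 (SE 0.08, edgeR adjusted p = 0.488). Rps4x, the X-linked form of a small subunit protein, was at 86.8 and 101 CPM in WT and at 101 and 108 CPM in Eko libraries, with WT 1 below the other 3 (log2 fold change 0.15, SE 0.09, edgeR adjusted p = 0.561). Without WT 1 the estimates were 0.074 for Rpl39, 0.079 for Rpl22 and 0.051 for Rps4x, and without WT 2 they were 0.30, 0.29 and 0.28.

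Rpl12, at the base of the stalk, Rpl4, which reaches into the exit tunnel, and Rpl36a had log2 fold changes of 0.11, 0.10 and 0.09, with edgeR adjusted p-values of 0.609, 0.627 and 0.728. Rpl12 overlaps Lrsam1 on the other strand. In each of the 3 both Eko libraries were above both WT libraries. Without WT 1 the estimates of Rpl4 and Rpl36a were 0.060 and 0.027, and without WT 2 they were 0.15 and 0.18. The estimate of Rpl12 was 0.064 without Eko 1 and 0.17 without Eko 2. Rpl4 was the most abundant of these, at 300 and 316 CPM in WT and 325 and 334 CPM in Eko libraries. Over all 80 members, 20 had both Eko libraries below both WT libraries and 5 had both above, where 23.0% and 20.8% of all genes tested did so. The share of members without overlap, 31.25%, was below the 43.8% of all genes tested.

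Both subunits held estimates on either side of 0. Of the 45 large subunit genes tested, 21 were higher and 24 lower in Eko mice, with a median log2 fold change of -0.0082. Of the 32 small subunit genes, 13 were higher and 19 lower, with a median of -0.027. In the stalk, Rplp1 and Rplp2, the acidic proteins that contact translation factors, had log2 fold changes of 0.01 and 0.02, and Rplp0 of -0.05. Rpsa, a small subunit protein also known as a laminin receptor, was at 211 and 214 CPM in WT and at 202 and 201 CPM in Eko libraries, with no overlap (log2 fold change -0.08, SE 0.06, edgeR adjusted p = 0.680). The 13 members with a tract at the annotated start had a median log2 fold change of 0.0100, and the 45 tested members with a window but no tract had a median of -0.016. A run of pyrimidines that does not begin at the annotated base counted as no tract. The split therefore does not sort mRNAs by the TOP motif.

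The 2 WT mice differed from each other across the set. WT 2 was above WT 1 in 68 of 80 members, by a median of 0.13 on the log2 scale, while the median over all genes tested was -0.0054. Between the 2 Eko mice, the median was -0.0074, with 36 of 80 members higher in Eko 2. WT 1 was the lowest of the 4 libraries in 46 members, 57.5%, against 27.0% of all genes tested, and WT 2 was the highest in 55 members, 68.75%, against 23.6% of all genes tested. In 63 of the 80 members, the gap between the WT mice was larger than the genotype difference, against 53.7% of all genes tested. A gap between single libraries has a wider spread than a difference of means, so such a share lies above an even split with equal noise. Measured as the median deviation from each gene's mean over the 4 libraries, WT 1 was at -0.067, WT 2 at 0.071, Eko 1 at -0.010 and Eko 2 at -0.016, so both Eko mice fell between the WT mice.

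**Figure D3:**
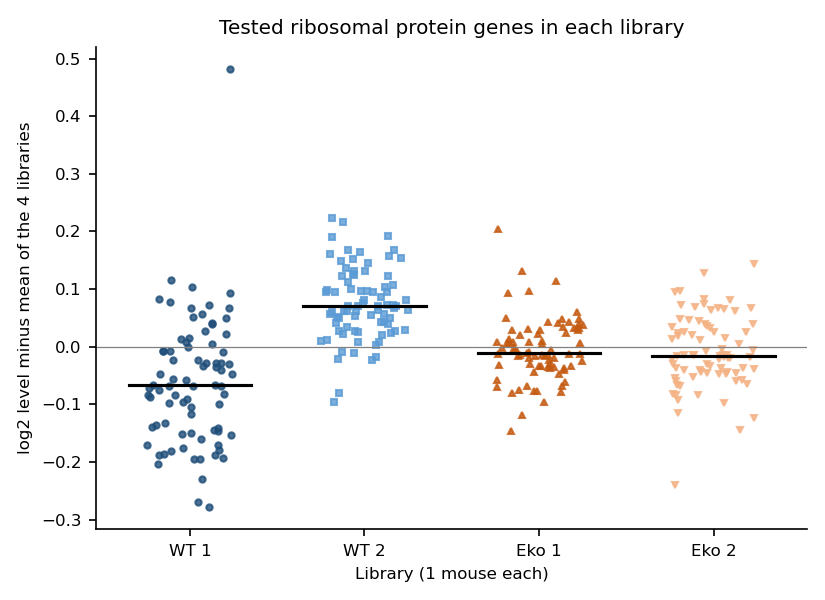
Level of each of the 80 tested ribosomal protein genes in each library (1 mouse each) as log2 CPM minus the gene's mean over the 4 libraries, with a bar at the median. The medians are -0.067 in WT 1 and 0.071 in WT 2, and -0.010 and -0.016 in the Eko libraries, between those of the WT mice.

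Rps27, of the small subunit, had the widest gap of the tested members in which WT 2 was higher. It was at 8.04 and 11.4 CPM in WT and at 9.95 and 9.93 CPM in Eko libraries, so WT 2 exceeded WT 1 by 0.50 on the log2 scale with both Eko libraries between. WT 2 was above WT 1 by more than 0.3 in 12 of the tested members, and no tested member had an absolute gap above 0.3 between the Eko mice.

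The direction over the whole set followed which WT mouse was kept. Without WT 1, 11 members were higher and 69 lower in Eko mice, with a median log2 fold change of -0.085. Without WT 2, 57 were higher and 23 lower, with a median of 0.082. Neither fit called a member, where 0.591% and 1.79% of all genes were called, with smallest adjusted p-values from edgeR's quasi-likelihood test of 0.445 and 0.102. In the fits without WT 1 and without WT 2, 4 and 16 members had an unadjusted p below 0.05, which is 5% and 20.0% of the members against 9.53% and 14.1% of all genes tested. In each fit, the lone WT library was assumed to vary like the Eko libraries.

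Among the members, the estimate went with GC content. The rank correlation of log2 fold change and transcript GC content was -0.37 across the 80 members and -0.22 across all genes tested with an annotation, a description over genes that share the same 4 libraries. The 40 members of lower GC content had a median log2 fold change of 0.030, with 15 lower in Eko mice. The 40 of higher GC content had a median of -0.047, with 29 lower. After the trend with GC content over all genes was removed from each library, the correlation among members was 0.074, the median was 0.012, 43 members were higher and 37 lower, and 0 were called. After the trend with transcript length was removed, the median was 0.035 and 51 members were higher. The members were short, with a median length of 711.5 bases against 2073 bases for all genes tested, and had a median GC content of 51.6% against 50.2%.

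**Figure D4:**
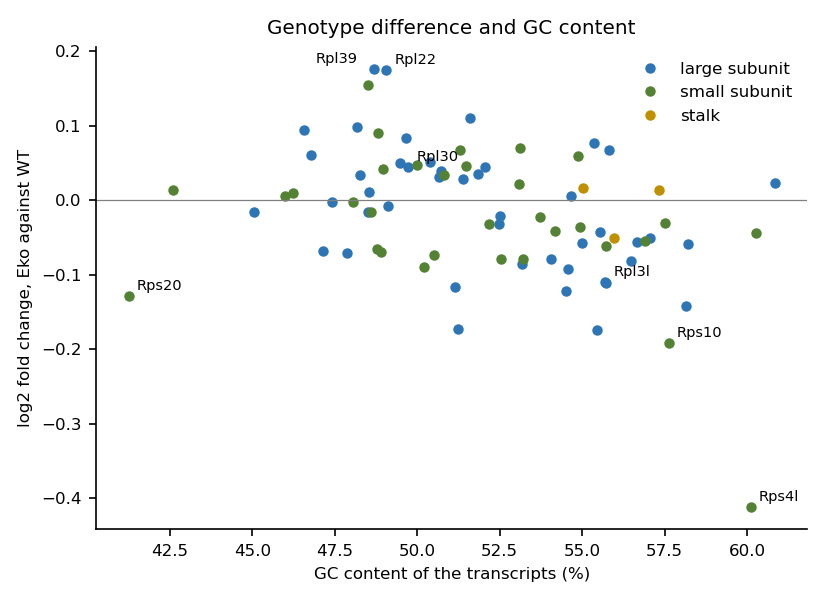
Log2 fold change in Eko against WT mice and GC content of the transcripts, with 1 point per tested ribosomal protein gene coloured by subunit. Most points to the right of the middle lie below 0, with 29 of the 40 members of higher GC content lower in Eko mice and 15 of the 40 of lower GC content.

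Several ribosomal proteins have a paralogue with a restricted pattern, and Rpl3l is the one known from muscle. Rpl3l (ENSMUSG00000002500.15, chr17:24727820-24736143, plus strand, GRCm38) was counted 23015 and 24706 times in WT mice, and 24501 and 20013 times in Eko mice. That was 303 and 305 CPM in WT and 284 and 280 CPM in Eko libraries, with both Eko libraries below both WT libraries. The means were 304 ± 1.57 CPM (SD, n = 2) in WT and 282 ± 3.07 CPM (SD, n = 2) in Eko mice. The log2 fold change was -0.11 (SE 0.06, 95% interval -0.26 to 0.04, edgeR adjusted p = 0.558), so the estimate did not pass the test, and with each mouse left out it was between -0.11 and -0.090. It was -0.053 with the GC trend over all genes removed and -0.068 with the length trend removed.

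Rpl3 (ENSMUSG00000060036.14, chr15:80077791-80091868, minus strand) was at 16.7 and 17.4 CPM in WT and at 16.5 and 15.6 CPM in Eko libraries. It overlaps Syngr1 on the other strand, and its log2 fold change was -0.09 (SE 0.08, edgeR adjusted p = 0.723). With each mouse left out the estimate was between -0.11 and -0.043. It was -0.055 with the GC trend over all genes removed and -0.041 with the length trend removed. Per kb of transcript, Rpl3l exceeded Rpl3 by 14.3 and 13.9 times in WT and by 13.6 and 14.2 times in Eko libraries, and made up 93.3% of the pair. The ratio was 14.1 ± 0.308 (SD, n = 2) in WT and 13.9 ± 0.397 (SD, n = 2) in Eko mice, which overlapped (exact two-sided permutation p = 0.667, smallest possible 0.333). With the longest transcripts it was 17.4 over the 4 libraries. Counts on rows of Rpl3 pseudogenes equalled 56.1% of those of Rpl3 itself.

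The other pairs were balanced differently. Rps27l, a p53-responsive relative of Rps27, was at 15.2 and 19.2 CPM in WT and at 17.7 and 17.0 CPM in Eko libraries. Per kb it exceeded Rps27 by 1.51 and 1.35 times in WT and by 1.42 and 1.37 times in Eko libraries. Rps27rt, a ribosomal protein gene outside the symbol rule, was at 50.7 and 58.5 CPM in WT and at 54.7 and 54.1 CPM in Eko libraries. The ratio leaves out Rps27rt, which is named here after its value was seen. How reads were divided between Rps27rt and Rps27 was not tested. Rpl6l stood at 0.189 and 0.151 of Rpl6 per kb in WT and at 0.154 and 0.166 in Eko libraries. Rps4l was at 0.0251 and 0.0145 of Rps4x in WT and at 0.0140 and 0.0122 in Eko libraries. Rpl39l, known from male germ cells, was at 8 counts or fewer in every library, and 2 of them were at or under 3 counts. The exact two-sided permutation p was 0.333 for the ratio of Rps4l to Rps4x, the smallest this design allows, and 1 for the ratios of Rps27l, Rpl6l and Rpl39l to theirs. Rpl22l1, Rpl7l1 and Rpl36al, paralogues that also fall outside the symbol rule, had log2 fold changes of 0.04, -0.02 and 0.02.

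Ribosomal protein genes have many processed copies in the genome, and RSEM divides reads that match several copies. The table holds 276 rows named as pseudogenes of ribosomal proteins, 128 of them with a count, with 0.0854% and 0.0886% of the counts of the WT mice and 0.0840% and 0.0817% of those of the Eko mice. For 50 of the 81 members at least 1 such row had a count. In 4 members the pseudogene rows held more counts than the gene itself: Rps6 at 122%, Rpl10a at 111%, Rpl27 at 101% and Rps15a at 101% of the gene's own counts. The counts of Rps6 itself were 5403 and 6245 for WT mice, with 6425 and 5639 for Eko mice, while its pseudogene rows came to 7643 and 7413 for WT mice, with 7327 and 6631 for Eko mice. Levels of such members are uncertain by this division. With the pseudogene rows added to their members, 33 members were higher and 47 lower in Eko mice, with a median log2 fold change of -0.021 and 0 called. Pseudogene rows were found by -ps in the symbol, so rows under other names, such as Rps27rt and Rpl6l, were not added. The strand setting used for counting is not given in the sources used here, and 22 of the 81 members have a gene on the other strand.

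Rpl30 (ENSMUSG00000058600.13, chr15:34440505-34443640, minus strand), of the large subunit, is 1 of the reference transcripts of the RT-qPCR in this study, beside Hprt. It was at 52.2 and 54.0 CPM in WT and at 55.1 and 54.4 CPM in Eko libraries, with both Eko libraries higher by a small margin. It overlaps D730044K07Rik on the other strand, and the log2 fold change was 0.04 (SE 0.07, 95% interval -0.11 to 0.20, edgeR adjusted p = 0.842). The estimate was between 0.021 and 0.085 with each mouse left out, and 0.098 with the length trend removed. It was -0.039 when its pseudogene rows were added, which came to 650 and 437 counts for WT mice, with 218 and 353 for Eko mice. Hprt was at 9.85 and 11.9 CPM in WT and at 11.8 and 12.3 CPM in Eko libraries (log2 fold change 0.15, SE 0.11, edgeR adjusted p = 0.665). The ratio of Rpl30 to Hprt was 5.29 and 4.54 in WT and 4.66 and 4.44 in Eko libraries, and these overlapped (exact two-sided permutation p = 0.667).

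The genes that make and regulate ribosomes were read beside the proteins, as 5 lists with 115 genes tested. By edgeR's quasi-likelihood test 0 of the 115 were called, against 0.416% of all genes tested, and 11, or 9.57%, had an unadjusted p below 0.05, against 11.6%. DESeq2 called 2, Nle1 and Deptor, or 1.74%, against 1.97%. Of the 8 ribosomal protein genes outside the symbol rule, 4 were higher and 4 lower in Eko mice, with a median log2 fold change of 0.0049.

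Among 20 translation factors and other genes with TOP mRNAs, 8 were higher and 12 lower, with a median of -0.020. Eif4b, a helicase cofactor in initiation, was at 237 and 250 CPM in WT and at 278 and 319 CPM in Eko libraries (log2 fold change 0.29, SE 0.08, edgeR adjusted p = 0.279). Nap1l1, a histone chaperone, had a log2 fold change of 0.23 (edgeR adjusted p = 0.455). Both Eko libraries were above both WT libraries in both genes.

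RNA polymerase I and its factors, 17 genes tested, were split into 9 higher and 8 lower with a median of 0.00070. Myc, which raises ribosome synthesis, was at 4.65 and 2.26 CPM in WT and at 4.38 and 5.96 CPM in Eko libraries, so the groups overlapped (log2 fold change 0.58, SE 0.32, edgeR adjusted p = 0.543). Its relative Mycn was at 0.325 CPM or less in every library, with a log2 fold change of 0.55 (edgeR adjusted p = 0.685).

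Of the 48 assembly factors tested, 28 were higher and 20 lower, with a median of 0.036. Nle1, which acts in the maturation of the large subunit, was at 5.14 and 7.53 CPM in WT and at 3.32 and 3.49 CPM in Eko libraries, with no overlap. Its log2 fold change was -0.90 (SE 0.19, adjusted p = 0.170 by edgeR and 0.0096 by DESeq2), and Fndc8 lies on the other strand. Utp20, of the small subunit processome, had a log2 fold change of 0.27 (edgeR adjusted p = 0.347).

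In the mTORC1 pathway, 12 of 22 genes tested were higher and 10 lower, with a median of 0.024. Deptor, an inhibitor bound to mTOR, was at 237 and 241 CPM in WT and at 164 and 187 CPM in Eko libraries, with both Eko libraries below both WT libraries. Its log2 fold change was -0.44 (SE 0.08, adjusted p = 0.116 by edgeR and 0.00055 by DESeq2), and Gm9920 lies on the other strand. Sesn2, a leucine sensor upstream of mTORC1, was at 2.69 and 2.36 CPM in WT and at 3.13 and 3.12 CPM in Eko libraries (log2 fold change 0.31, SE 0.15, edgeR adjusted p = 0.502). Larp1 was at 247 and 249 CPM in WT and at 254 and 252 CPM in Eko libraries (log2 fold change 0.03, SE 0.06, edgeR adjusted p = 0.892). It was added here for its role in TOP mRNA control after its value was seen.

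**Figure D5:**
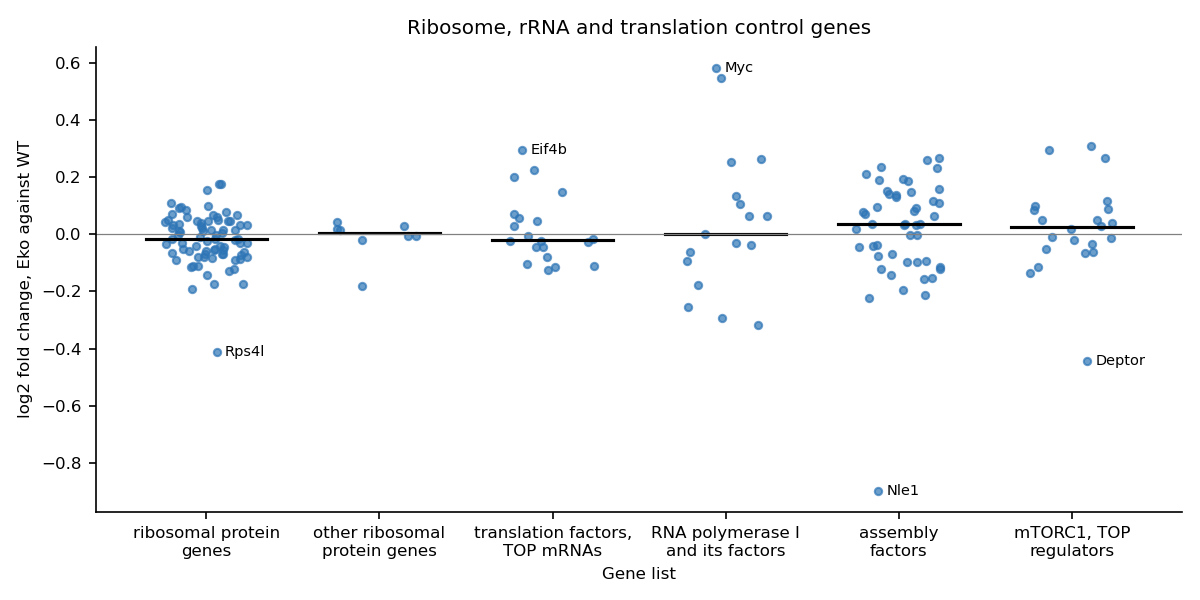
Log2 fold change in Eko against WT mice of the 80 ribosomal protein genes and of 5 lists of genes for ribosome synthesis and translation control, with 1 point per gene and a bar at the median. The medians lie between -0.020 and 0.036, and the points of Nle1 at -0.90, Deptor at -0.44, Rps4l at -0.41, Eif4b at 0.29 and Myc at 0.58 are named.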

How the data were processed

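RNA of 4 quadriceps (2 WT, 2 Eko mice) was selected for polyA and sequenced from a stranded library kit. The authors aligned reads to mm10 (the submitters' processing notes name STAR 2.6.1a) and deposited expected counts per gene from RSEM, without normalization. All values were whole numbers. Groups and replicate numbers come from the sample labels.

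Counts were compared in R 4.3.3 with edgeR 4.0.16 (quasi-likelihood test, TMM, default filter on low counts, genotype as the sole term, Benjamini-Hochberg adjustment over 16120 genes, threshold 0.05), which was tested on simulated data. CPM are TMM-scaled. DESeq2 1.42.0, the tool of the study, and limma 3.58.1 (voom) were alternatives. Length, GC content, positions and overlaps come from GENCODE M21 on GRCm38, and start windows from RefSeq on GRCm38.p6. The authors' Ensembl annotation may differ.

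The members, the gene lists and the rule for named genes were chosen with earlier results of these data known. Named were the 6 highest and 6 lowest log2 fold changes, the 5 highest and 5 lowest levels per kb, paralogues, stalk proteins, Rpsa, the RT-qPCR reference transcripts, and per list the 2 genes with the largest change. Alternatives were other size factors (RLE, upper quartile), filters, tools, transcript lengths, GC and length corrections, added pseudogene rows, a replicate block and each mouse left out. A member and a list gene are not reported by name here, although they are in the counts.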

Additional observations from a re-analysis of the deposited data

How the results depend on the processing

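No ribosomal protein gene was called under any alternative. Of 364 alternative values of the 26 named and tested members, 339 kept their direction and side of the threshold and 25 changed sign, none past the threshold. The count over all genes moved from 67 to 799 with no filter on low counts, 23 with at least 1 CPM in 2 libraries, 318 with DESeq2, and 99 to 299 with a mouse left out. Among the pathway genes, 4 were called with no filter (Eif4b, Myc, Nle1, Deptor), 2 with DESeq2 and 2 with the replicate block (Nle1, Deptor in both), and 0 to 1 with a mouse left out. The block called 186 genes over all and 0 members. The study describes the mice as littermates, but the labels tie no replicate number to a litter, and the same-numbered deviations had a correlation of 0.0909 over 2 pairs, so the pairing was not taken as part of the design. The median log2 fold change of the members was -0.085 to 0.082 with a mouse left out, the extremes being without WT 1 and without WT 2. The longest transcript gave a median level of 65.1 CPM per kb and a Rpl3l to Rpl3 ratio of 17.4. Signs turned with the GC trend removed for Rplp0 (0.0098), Rps2 (0.014), Rps15 (0.049), Rpl27a (-0.0033) and Rps27l (-0.050), with the length trend removed for Rps15 (0.012), Rps24 (0.054) and Rpl6l (0.011), with RLE factors and with DESeq2 for Rps24 (0.0051 in both), and with pseudogene rows added for Rpl30 (-0.039). With a mouse left out, ranges crossed 0 for Rps2 (-0.12 to 0.029), Rps15 (-0.092 to 0.022), Rps24 (-0.011 to 0.021), Rpl27a (-0.049 to 0.089), Rpl6l (-0.11 to 0.060), Rps27 (-0.19 to 0.32), Rps27l (-0.14 to 0.21), Rplp1 (-0.14 to 0.20) and Rplp2 (-0.15 to 0.22). The cause of these changes was not tested. With 2 mice per genotype, differences smaller than the intervals given were not detectable.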
